A study of Rattus norvegicus with 14 samples.

Results

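Chemokines are small secreted proteins that draw leukocytes along a gradient by binding G protein-coupled receptors on the migrating cell. They are sorted by the spacing of their first cysteines into CC, CXC, CX3C and XC ligands, and atypical receptors bind them without the usual signalling and clear them. In skin, keratinocytes, fibroblasts, vessels and resident leukocytes all make chemokines, some constantly and others only after an interferon or inflammatory signal. The genes described here were all single-symbol probe sets whose symbol names a chemokine or a chemokine receptor, and there were 51 of them among the 14497 genes compared. They comprised 19 CC ligands, 12 CXC ligands, 2 CX3C and XC ligands, 16 conventional receptors and 2 atypical receptors. Each was read by 1 probe set. Some genes of the family were not analysed here.

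RNA came from the foreskin of Sprague Dawley rat pups on postnatal day 5. Their mothers had been gavaged on gestational days 16 to 20 with corn oil, the vehicle, or with flutamide, an androgen receptor blocker, at 5 mg/kg/day. Each group held 7 litters, and 2 foreskins of a litter were pooled into 1 sample, so replicates are litters. Affymetrix Gene 1.0 ST arrays gave a log2 value per probe set, and whether the prenatal antiandrogen altered these genes was the question of the comparison. In pooled bulk tissue, fewer cells of a type and less RNA per cell cannot be told apart.

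The tissue label was checked against defining markers. All 4 keratinocyte markers measured, all 5 fibroblast markers and all 5 endothelial markers lay above the floor of the arrays defined below. Of T, NK and B cell markers, 2 of 6, 1 of 5 and 1 of 2 lay above it, and of neutrophil markers 1 of 5. Of macrophage, mast cell and dendritic cell markers, 3 of 5, 4 of 5 and 3 of 3 did. Over all genes 68.1% lay above the floor, so this check of the label is a weak one. Array medians lay within 0.073 of each other on the log2 scale, and the number of arrays limits the precision.

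None of the 51 genes differed between flutamide and corn oil litters at a limma p under 0.05 adjusted over all genes (Benjamini-Hochberg), a threshold that 0.0069% of all genes passed, and at an unadjusted p under 0.05 10 of the 51 were higher and 1 lower, where 5.7% and 3.46% of all genes were. The widest differences lay in a single litter. In flutamide replicate 1 the interferon-inducible ligands Cxcl10 and Cxcl11 stood 2.74 and 2.06 log2 units above the median of the other 13 litters. Those 13 litters all lay below the floor for Cxcl11 and on both sides of it for Cxcl10. Without flutamide replicate 1 the group difference of Cxcl10 turned from 0.31 to -0.09. Apart from these ligands, group differences were small, and the 95% confidence interval excluded a 1.5-fold change in either direction for 49 of the 51 genes, the exceptions being Cxcl10 and Cxcl11. Without flutamide replicate 1 it did so for all 51. For the 24 genes at or below the floor, the interval bounds array values only, because the processing described below shrinks differences of dim probe sets.

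The promoters of the CXCR3 ligand genes are shown because Cxcl10 and Cxcl11 were the genes farthest above the others in that litter, while their neighbour Cxcl9 was not. Cxcl11, Cxcl10 and Cxcl9 are neighbours on rat chromosome 14 and encode ligands of CXCR3, a receptor of activated T and NK cells. The windows run from 250 bases before to 50 bases after the transcription start, 5′ to 3′, as RefSeq gives them for GRCr8. Capitals mark matches on either strand to an interferon-stimulated response element core (GAAA, any 2 bases, GAAA), a gamma-activated site core (TTC, any 3 bases, GAA) or a kappa B core (GGG, any 3 bases, TTCC).
Cxcl10, chr14:15988816-15989115, plus strand: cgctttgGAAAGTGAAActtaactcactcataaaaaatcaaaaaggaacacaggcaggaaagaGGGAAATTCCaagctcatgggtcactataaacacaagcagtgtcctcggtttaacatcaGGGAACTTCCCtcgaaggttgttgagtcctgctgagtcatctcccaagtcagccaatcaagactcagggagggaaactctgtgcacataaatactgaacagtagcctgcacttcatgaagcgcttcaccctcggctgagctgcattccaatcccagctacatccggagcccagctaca
Cxcl11, chr14:15973478-15973777, plus strand: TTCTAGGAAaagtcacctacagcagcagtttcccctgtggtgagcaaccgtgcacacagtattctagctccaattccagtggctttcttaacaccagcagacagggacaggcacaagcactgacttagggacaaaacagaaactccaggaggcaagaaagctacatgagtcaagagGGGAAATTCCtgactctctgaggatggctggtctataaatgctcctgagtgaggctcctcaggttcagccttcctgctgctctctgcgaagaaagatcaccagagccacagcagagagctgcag
Cxcl9, chr14:16006916-16007215, plus strand: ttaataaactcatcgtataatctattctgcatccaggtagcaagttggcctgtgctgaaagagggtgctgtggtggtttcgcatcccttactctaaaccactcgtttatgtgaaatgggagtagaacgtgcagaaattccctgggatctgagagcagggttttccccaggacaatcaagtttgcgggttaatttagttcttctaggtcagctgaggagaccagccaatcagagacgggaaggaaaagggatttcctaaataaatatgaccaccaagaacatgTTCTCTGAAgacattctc

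The interferon-stimulated response element core occurred in the Cxcl10 window, 243 bases before the start, and in neither of its neighbours. A kappa B core occurred in Cxcl10, 187 bases before the start, with 2 overlapping matches on opposite strands 128 and 127 bases before it, and in Cxcl11, 74 bases before the start. A gamma-activated site core opened the Cxcl11 window and lay 32 bases after the start in Cxcl9. Promoters were found for 40 of the 51 genes. Among these, 2 held the interferon core, 6 the gamma core and 10 the kappa B core, which is 5%, 15% and 25%, while 3.77%, 8.68% and 5.36% of all 27457 promoters of the same length did. The kappa B matches were in Ccl6, Ccl7, Ccl9, Ccl20, Ccr3, Cxcl1, Cxcl2, Cxcl6, Cxcl10 and Cxcl11. Such a match is a description of letters in a window and shows no bound factor.

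Cxcl10 (probe set 10771655, NCBI gene 245920) had log2 values of 5.17, 5.41 and 5.62 as the lowest, median and highest of the corn oil litters. In flutamide litters these were 4.97, 5.38 and 8.13. Flutamide replicate 1 held the 8.13, the other 13 litters lay between 4.97 and 5.77, and the medians of both groups nearly coincided. That litter's level was 6.68-fold the median of the others. Those 13 litters lay on both sides of the floor of 5.31, with a median of 5.39. The size of this distance therefore rests in part on dim values. The group difference was 0.31 with all litters (SE 0.33; limma adjusted p = 0.822, exact permutation p = 0.780) and -0.09 without flutamide replicate 1 (SE 0.10; limma adjusted p = 0.802).

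Cxcl11 (probe set 10771649, NCBI gene 305236) ran from 3.88 through a median of 4.22 to 4.40 in corn oil litters and from 4.03 through 4.33 to 6.28 in flutamide litters. The same litter held the highest value, and the other 13 lay between 3.88 and 4.50, all below the floor of 5.31, so the size of that litter's distance rests on dim values. The difference was 0.42 (SE 0.25; limma adjusted p = 0.643) with all litters and 0.13 (SE 0.10) without flutamide replicate 1. Cxcl9 (probe set 10771660, NCBI gene 246759) ran from 4.50 through 4.68 to 5.11 in corn oil and from 4.56 through 4.93 to 5.32 in flutamide litters. Flutamide replicate 1 was at 5.23 for Cxcl9, inside the range of the others, and the highest value belonged to flutamide replicate 5. Their receptor gene Cxcr3 had medians of 6.25 in both groups, with flutamide replicate 1 at 6.24.

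**Figure D1:**
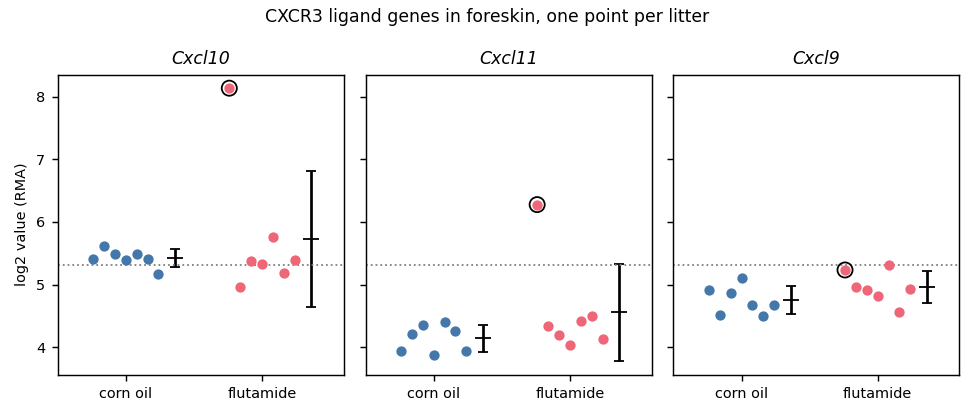
The log2 RMA values of Cxcl10, Cxcl11 and Cxcl9 on the vertical axis, with 1 point per litter, 7 litters per group, replicates 1 to 7 from left to right, bars for the mean and SD, and a dotted line at the floor of 5.31. The circled point is flutamide replicate 1, at 8.13 for Cxcl10 and 6.28 for Cxcl11, apart from the other litters, and at 5.23 for Cxcl9, among them.

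The genes beside the CXCR3 ligands on the chromosome did not share the pattern. In RefSeq gene order, Art3, Nup54 and Scarb2 flank the cluster on one side and Sdad1, Naaa and Ppef2 on the other. Flutamide replicate 1 lay inside the range of the other 13 litters for each of these 6, with values from -0.28 to 0.07 relative to their median.

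Flutamide replicate 1 had the highest value of the 14 litters for 16 of the 51 genes, or 31.4%, while it was the highest for 6.04% of all genes. It was the lowest for 3, or 5.88%, against 6.64% of all genes, and the 13 other litters were each the highest for between 1 and 6 of the 51. At least 0.5 log2 units above the median of the others were 6 genes, Cxcl10, Cxcl11, Ccr2, Ccl4, Ccl12 and Ccl2, against 0.848% of all genes, and none lay as far below, where 0.372% of all genes did. Cxcl10 and Cxcl11 were the 2 genes at least 1 log2 unit above, against 0.152% of all genes. This litter was singled out by earlier results of these data, so these counts carry no test.

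The monocyte attractants were among the genes high in that litter. Ccl2, which recruits monocytes through the receptor CCR2, was at 7.20 there and between 6.41 and 6.97 in the other 13 litters. Ccl12, another CCR2 ligand, was at 4.77 against 3.99 to 4.52, and Ccl7, also a CCR2 ligand, at 5.55 against 5.10 to 5.43. The receptor gene Ccr2 was at 6.42 against 5.03 to 5.80, which is 1.86-fold the median of the others. So these ligands and their receptor were all at their highest in flutamide replicate 1, while Ccr1 was at 3.84, inside a range of 3.66 to 4.35. Ccl12 and Ccl7 had means of 4.27 and 5.30, below the floor of 5.31, and Ccl12 stayed below it in that litter.

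Ccl3 and Ccl4, which attract monocytes and T cells, were at 4.49 and 6.20 in flutamide replicate 1, against highest values of 4.35 and 5.87 in the others. Ccl11, an eosinophil attractant of fibroblasts, was at 5.15 against 4.38 to 4.86. For the neutrophil attractants Cxcl1 and Cxcl2, that litter was at 6.31 and 4.34, against highest values of 6.18 and 4.26. It was also the highest for Ccl6, Ccl28, Ccr10, Cxcr5 and Xcr1, by at most 0.48 log2 units above the median of the others. It was the lowest for Ackr2, Ccl20 and Ccr6. By their means, Ccl3, Ccl6, Ccl11, Ccl28, Ccr6, Cxcl2 and Cxcr5 lay below the floor.

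**Figure D2:**
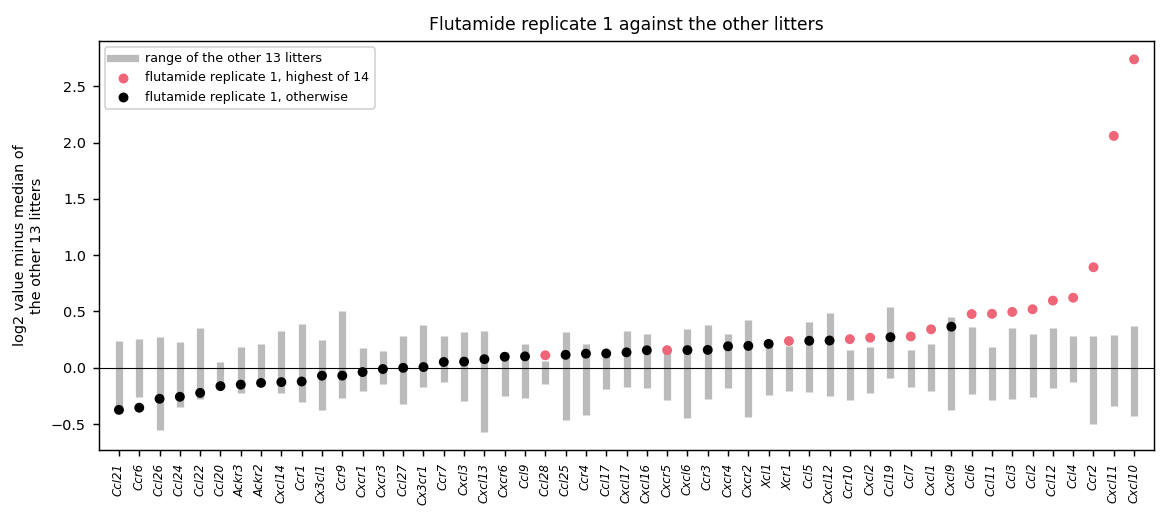
For each of the 51 genes, the log2 value of flutamide replicate 1 minus the median of the other 13 litters (points) and the range of those 13 litters (grey bars). The points in colour are the 16 genes for which this litter was the highest of 14, with Cxcl11 at 2.06 and Cxcl10 at 2.74.

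Other genes moved with the chemokines in flutamide replicate 1. Of 28 antiviral interferon-stimulated genes, 15 lay at least 0.5 log2 units above the median of the others in that litter and 9 at least 1. The mean of the 28 was 5.64 there against 4.87 to 5.02 elsewhere. Only 10 of the 28 had means above the floor, so many of these distances rest on dim values. Usp18, a brake on interferon signalling, was at 5.87 against 2.49 to 3.70, a range below the floor. Of 19 genes that sense or relay interferon, 9 were highest in that litter, among them Ifih1, a sensor of double-stranded RNA, at 6.96 against 5.90 to 6.41, and Stat2 at 6.67 against 5.88 to 6.27. Ifng was at 4.83 against 3.67 to 4.73, below the floor, and Ifnb1 at 4.53 inside a range of 4.01 to 4.73. Of 18 genes of the NF-kB pathway and its inducers, 2 were highest there, Il1a and Il1b.

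Markers of leukocytes in that litter were as follows. The mean over 5 neutrophil markers was 5.47 there, 4.75 to 5.04 in corn oil and 4.65 to 4.97 in the other flutamide litters, with 2 of the 5 highest in that litter. These were S100a9, at 6.45 against 4.47 to 5.07, and S100a8, at 6.29 against 4.26 to 5.84, which keratinocytes can also make, while Csf3r, Mpo and Ngp lay inside the range of the others. The mean over 6 T cell markers was 4.85 there, 4.64 to 4.77 in corn oil and 4.61 to 4.77 in the other flutamide litters, with no marker at its highest there and 4 of 6 below the floor.

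The mean over 5 macrophage markers was 6.11 in that litter, 5.94 to 6.33 in corn oil and 5.84 to 6.03 in the other flutamide litters. Adgre1 was highest in flutamide replicate 1, at 5.21 and below the floor, while Cd68, Csf1r, Cd163 and Mrc1 lay inside the range of the others. For the 5 mast cell, 2 B cell and 3 dendritic cell markers, the last including Xcr1 itself, that litter's mean lay within the range of the others. The mean over 5 NK cell markers was 5.27 in that litter, 5.05 to 5.26 in corn oil and 5.12 to 5.28 in the others. Gzmb and Nkg7 were highest there, Nkg7 below the floor, while Klrb1, Ncr1 and Prf1 lay inside the range of the others. The part of these cells in the chemokine values was not tested.

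To see which members could be read at all, their mean over 14 litters was set against a floor. The floor was the 95th percentile, 5.31 on the log2 scale, of 1263 olfactory, vomeronasal and taste receptor genes, a class not expected in foreskin. Above it lay 27 of the 51 genes, or 52.9%, against 68.1% of all genes. By class, these were 9 of 19 CC ligands, 6 of 12 CXC ligands, both CX3C and XC ligands, 8 of 16 conventional and both atypical receptors. Nearest below the floor was Ccl7 at 5.30 and nearest above it Xcr1 at 5.51, and 11 genes lay within 0.25 of it. Only 12 genes stayed above the 99th percentile of 5.97. Probes differ in affinity, so the floor sorts values and shows neither presence nor absence of a transcript.

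Among the genes above the floor were the CXCL12 axis and ligands of epithelia. Cxcl12, which holds stem and progenitor cells in their niche through CXCR4, ran from 7.37 through a median of 7.51 to 7.97 in corn oil and from 7.23 through 7.40 to 7.73 in flutamide litters. Its difference was -0.14 (SE 0.09; limma adjusted p = 0.695). Cxcr4 ran from 7.20 through 7.35 to 7.40 in corn oil and from 7.32 through 7.43 to 7.69 in flutamide litters, 5 of which lay above all corn oil litters. The groups differed by 0.16 (SE 0.06), at a limma p of 0.0203 and an adjusted p of 0.452. Ackr3, the atypical receptor that scavenges CXCL12, ran from 7.14 through 7.39 to 7.55 and from 7.15 through 7.26 to 7.49, with a difference of -0.12 (SE 0.07). Ligand and scavenger thus had differences below 0 and the signalling receptor one above 0, and none passed.

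Cxcl14, a ligand that epithelia make constantly, ran from 7.41 through a median of 7.46 to 7.77 in corn oil and from 7.23 through 7.45 to 7.58 in flutamide litters (difference -0.13, SE 0.07). Cxcl16, a membrane-bound ligand that also acts as a scavenger receptor, ran from 7.03 through 7.22 to 7.28 and from 7.12 through 7.23 to 7.51. Its receptor gene Cxcr6, found on T and NK cell subsets, lay below the floor, at 4.91 to 5.27 in corn oil and 5.15 to 5.29 in flutamide litters. Cxcr6 differed by 0.18 (SE 0.06), at a limma p of 0.00729 and an adjusted p of 0.363. Cxcl17, a mucosal ligand, ran from 6.51 through 6.62 to 6.87 and from 6.37 through 6.51 to 6.77, and 3 flutamide litters were lower than any corn oil litter.

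**Figure D3:**
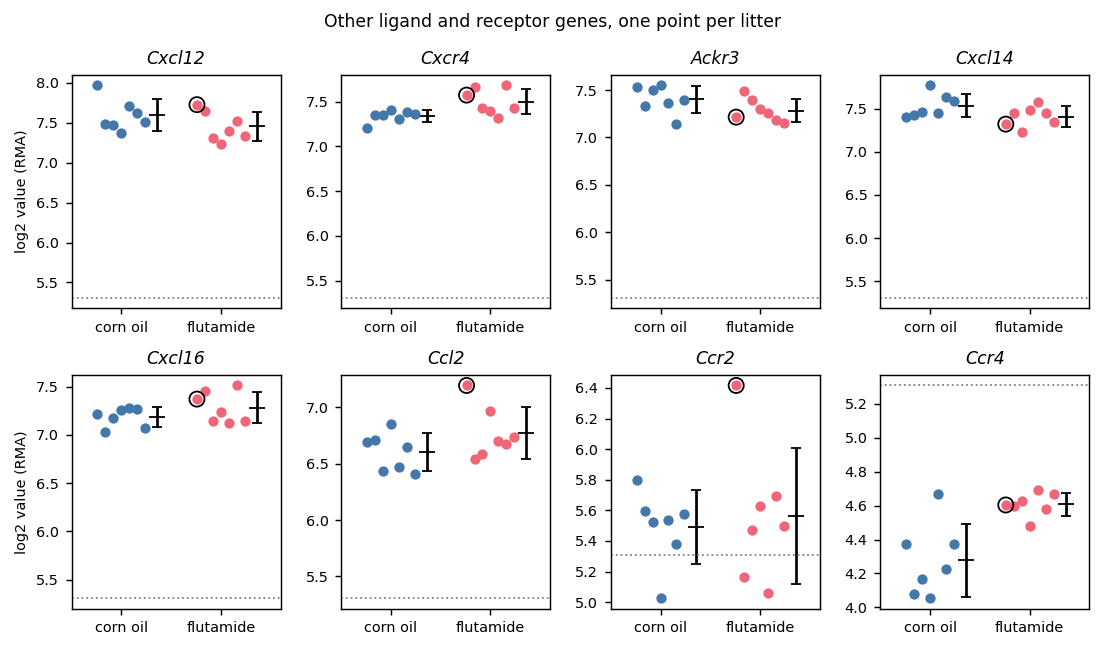
The log2 RMA values of 8 ligand and receptor genes on the vertical axes, which differ between panels and do not start at 0, with 1 point per litter, 7 litters per group, replicates 1 to 7 from left to right, bars for the mean and SD, and a dotted line at the floor of 5.31. The circled point is flutamide replicate 1, highest for Ccl2 at 7.20 and for Ccr2 at 6.42, and all 8 genes overlapped between the groups.

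Between the groups, 10 of the 51 genes had higher means in flutamide litters at an unadjusted limma p under 0.05, and 1 had a lower mean. These are 19.6% and 1.96% of the genes, where 5.7% and 3.46% of all genes did so. Dim genes leaned higher in general. Above the floor 5 of 27 genes were higher and none lower, against 4.04% and 3.74% of all genes there, and at or below it 5 of 24 were higher and 1 lower, against 9.23% and 2.88%. The split of all genes moved with scaling, from 826 higher and 502 lower to 668 and 641 with each sample centred on its median, and that of the 51 genes was then 9 and 1. For no gene of the 51 did the groups fail to overlap, which 0.0966% of all genes did with higher and 0.0276% with lower flutamide values.

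The median difference over the 51 genes was 0.10 on the log2 scale, with 33 genes above 0, against a median of 0.0048 and 52.3% above 0 over all genes. It was 0.04 over the 27 genes above the floor and 0.13 over the 24 below it, where all genes had -0.0043 and 0.03. Above 0 were 16 of the 27 and 17 of the 24, against 47.8% and 61.9% of all genes above and below the floor. Without flutamide replicate 1 the median was 0.08, and 7 genes were higher and 1 lower at an unadjusted p under 0.05. Of the higher genes 1 lay above the floor, where 4.48% of all genes were higher and 4.36% lower, and 6 lay below it with the lower one, where 9.93% were higher and 3.24% lower. Differences above 0 were then found for 32 of the 51 genes, against 52.5% of all genes. Dropped were Ccl5, Cxcl1, Cxcr2 and Xcl1, and added was Ccr9. In that comparison 6.22% of all genes were higher and 4% lower, and 0% passed after adjustment. Without flutamide replicate 7 the count of higher genes was 6, and without corn oil replicate 1 and flutamide replicates 1 and 7 it was 5 with a median of 0.02. Shares over all genes were not counted in these fits, so whether the lower counts are particular to the 51 genes cannot be told. Of the litters left out, corn oil replicate 1 had the highest SD of its array values, 1.76, and flutamide replicate 7 the lowest, 1.68. The part of array spread in these counts was not tested.

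**Figure D4:**
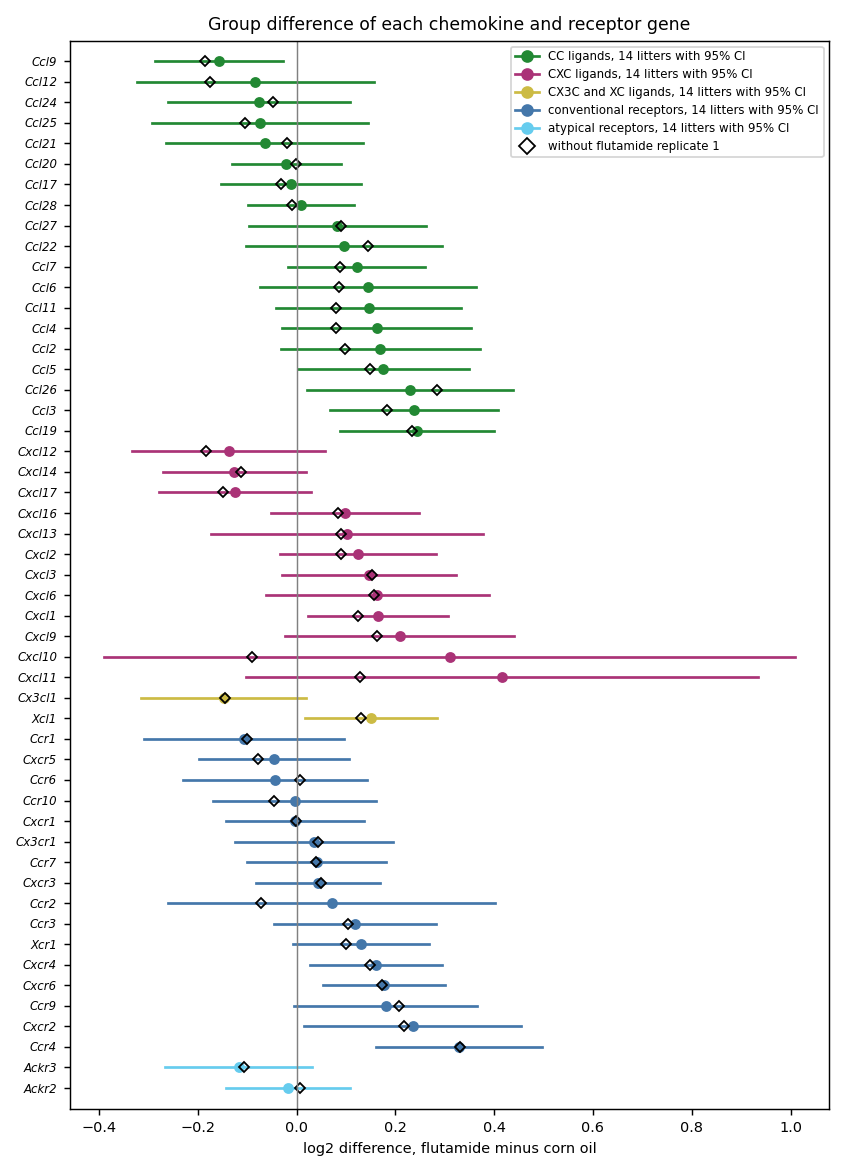
The log2 difference of flutamide minus corn oil litters for each of the 51 genes, with its 95% confidence interval over 14 litters (coloured by class), and the difference without flutamide replicate 1 (open diamonds). Every interval except those of Cxcl10 and Cxcl11 lies within a 1.5-fold change, and for these 2 genes the diamonds sit at -0.09 and 0.13.

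The receptor gene Ccr4 had the smallest p-value of the family. CCR4 marks skin-homing and regulatory T cells and binds CCL17 and CCL22. Ccr4 ran from 4.05 through a median of 4.22 to 4.67 in corn oil litters and from 4.48 through 4.60 to 4.69 in flutamide litters. All 7 flutamide litters lay above the corn oil median and 2 above the highest corn oil litter, so the groups overlapped. The groups differed by 0.33 (SE 0.08), with limma p = 0.000612, adjusted p = 0.302 and an exact permutation p of 0.0035. It was 0.33 without flutamide replicate 1 as well. All of these values lie below the floor. Of the 6 T cell markers, Cd3g was higher in flutamide litters at an unadjusted limma p under 0.05, by 0.17 (SE 0.08; adjusted p = 0.542), at values of 2.64 to 3.24, below the floor. With flutamide replicate 1 left out, Cd3g differed by 0.14, at a limma p of 0.109 and an adjusted p of 0.592. Cd4 and Cd8a differed by -0.13 and -0.09, and the list median was 0.04. The part of T cell number in the Ccr4 value was not tested.

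The ligands of CCR4 gave differences near 0. Ccl17 had medians of 5.99 in corn oil and 5.95 in flutamide litters, within a range of 5.77 to 6.10, and Ccl22 had medians of 5.66 and 5.78, within 5.43 to 6.06. Their differences were -0.01 (SE 0.07) and 0.10 (SE 0.10). Ccl27, the keratinocyte ligand of CCR10, a further skin-homing receptor, had medians of 5.80 and 5.83 and a difference of 0.08 (SE 0.09). Ccr10 itself had medians of 6.13 and 6.08 and a difference of -0.004 (SE 0.08), and Ccl28, its other ligand, was below the floor with 0.01 (SE 0.05).

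The CCR7 axis guides dendritic cells and naive T cells to lymph nodes. Ccl19 ran from 5.10 through a median of 5.14 to 5.22 in corn oil and from 5.12 through 5.45 to 5.73 in flutamide litters, with 6 of 7 flutamide litters above all corn oil litters. The corn oil litters were close together, with an SD of 0.04, and the flutamide litters spread over an SD of 0.20. They differed by 0.24 (SE 0.07), at a limma p of 0.00388 and an adjusted p of 0.348, with values about the floor. Ccl21, the ligand of lymphatic vessels, ran from 6.37 through 6.59 to 6.71 and from 6.19 through 6.51 to 6.83, with a difference of -0.06 (SE 0.09). The receptor gene Ccr7 had medians of 6.63 and 6.67 and a difference of 0.04 (SE 0.07). The pair of CCR7 ligands therefore had differences of opposite sign, and neither passed.

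Among ligands of inflammatory monocyte and T cell receptors, Ccl3 ran from 3.72 through a median of 3.91 to 4.05 in corn oil and from 3.95 through 4.14 to 4.49 in flutamide litters, below the floor. Its difference was 0.24 (SE 0.08), with a limma p of 0.00862 and an adjusted p of 0.368. Without flutamide replicate 1 it was 0.18 (SE 0.07). Ccl5, a ligand of CCR1 and CCR3, ran from 5.67 through 5.82 to 5.90 and from 5.68 through 5.95 to 6.29, with a difference of 0.18 (SE 0.08). Ccl4 ran from 5.46 through 5.58 to 5.61 and from 5.46 through 5.66 to 6.20. Its difference of 0.16 was 0.08 without flutamide replicate 1, and that of Ccl2 went from 0.17 to 0.10. The difference of Ccr2, at medians of 5.54 and 5.50, turned from 0.07 to -0.07.

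Ccl9 was the 1 gene of the family with a lower flutamide mean at an unadjusted p under 0.05. It is a ligand of CCR1 that rodents make in macrophages. Its values ran from 5.22 through a median of 5.27 to 5.44 in corn oil and from 4.96 through 5.18 to 5.33 in flutamide litters, about the floor. Lower than any corn oil litter were 5 flutamide litters. It differed by -0.16 (SE 0.06), at a limma p of 0.0203 and an adjusted p of 0.452. Ccl6, a related rodent ligand, had a difference of 0.14 (SE 0.10). Beside this, the macrophage marker Cd163 differed by -0.21 (SE 0.06; limma adjusted p = 0.348), and the median over 5 macrophage markers was -0.06. Their part in the Ccl9 value was not tested.

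The eosinophil attractants of the CCR3 axis are the eotaxins. Ccl26 ran from 4.61 through a median of 5.01 to 5.40 in corn oil and from 4.89 through 5.17 to 5.43 in flutamide litters, with its mean below the floor. Its difference was 0.23 (SE 0.10) and, without flutamide replicate 1, 0.28 (SE 0.10). Ccl24 had medians of 5.95 and 5.89, within 5.59 to 6.16, with a difference of -0.08 (SE 0.09), and Ccl11 had 0.15 (SE 0.09). Ccr3 itself was between 2.34 and 2.99 in all litters, the lowest range of the family.

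Neutrophil attraction runs through CXCR2 and its ligands CXCL1, CXCL2, CXCL3 and, in rats, CXCL6. Cxcl1 ran from 5.76 through a median of 5.92 to 6.08 in corn oil and from 5.95 through 6.02 to 6.31 in flutamide litters. Its difference of 0.16 (SE 0.07; limma adjusted p = 0.481) was 0.12 (SE 0.06) without flutamide replicate 1. Cxcl2, Cxcl3 and Cxcl6 lay below the floor with differences of 0.12, 0.15 and 0.16. Cxcr2 ran from 5.31 through 5.50 to 6.02 and from 5.58 through 5.81 to 6.16, 0.24 apart (SE 0.10; limma adjusted p = 0.516). All 5 of these differences were above 0, and none passed. Differences above 0 were found for 47.8% of all genes above the floor and 61.9% at or below it. Cxcr1 was below the floor with a difference of -0.003. Neutrophil markers are few above the floor here, 1 of 5, and their median difference was -0.0064. S100a8, with a mean below the floor, differed by -0.27 (SE 0.23; limma adjusted p = 0.763). Without flutamide replicate 1 it differed by -0.50 (SE 0.14), at a limma p of 0.00264 and an adjusted p of 0.277. It was then the 1 marker of 5 that was lower at an unadjusted p under 0.05, and none was higher.

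Of the remaining axes, Xcl1, a ligand of T and NK cells, ran from 5.41 through a median of 5.59 to 5.76 in corn oil and from 5.57 through 5.74 to 5.90 in flutamide litters. Its difference was 0.15 (SE 0.06; limma adjusted p = 0.499). Xcr1, its receptor on cross-presenting dendritic cells, had medians of 5.39 and 5.54 and a difference of 0.13 (SE 0.07). Cx3cl1, the membrane-bound fractalkine, ran from 5.37 through 5.60 to 5.74 and from 5.12 through 5.42 to 5.64, with a difference of -0.15 (SE 0.08). Cx3cr1, its receptor on monocytes and macrophages, had medians of 5.50 and 5.60 and a difference of 0.03 (SE 0.08).

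Ackr2, which scavenges inflammatory CC ligands, had medians of 5.66 in both groups. Ccl20, the ligand of CCR6, had medians of 5.61 and 5.58 and a difference of -0.02 (SE 0.05), and Ccr6 lay below the floor with -0.04 (SE 0.09). The B cell attractant Cxcl13 and its receptor gene Cxcr5 were also below the floor, with differences of 0.10 (SE 0.13) and -0.05 (SE 0.07). Ccl25, which guides gut and thymic T cells, was below it with -0.07 (SE 0.10). Its receptor gene Ccr9, below the floor as well, had a difference of 0.18 (SE 0.09). Without flutamide replicate 1 that was 0.21 (SE 0.09), with a limma p of 0.0369 and an adjusted p of 0.452.

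Genes that act with chemokines were taken from lists. Of 23 genes of chemokine receptor signalling, none was higher and 3 were lower in flutamide litters at an unadjusted limma p under 0.05, where 5.7% of all genes were higher and 3.46% lower, a background that holds for the lists below as well. None passed after adjustment. The lower genes were Dock2, a Rac activator of migrating leukocytes, with -0.26 (SE 0.09; limma adjusted p = 0.363), and the receptor kinases Grk3 with -0.16 (SE 0.06) and Grk5 with -0.19 (SE 0.08). Dock2 and Grk3 lay below the floor. The list median was 0 to 4 decimals, against 0.0048 over all genes. Of 16 genes that process or present chemokines, such as the protease Dpp4 and the heparan sulphate carriers, none reached an unadjusted p under 0.05, with a median of -0.0093.

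Of the 18 NF-kB pathway genes and inducers, 2 were higher and 1 lower at that p. Il6, a cytokine, differed by 0.30 (SE 0.07; limma adjusted p = 0.302) and Tlr2, a receptor of bacterial lipoproteins, by 0.23 (SE 0.07), both at values below the floor. Il18, a cytokine of keratinocytes, differed by -0.24 (SE 0.09). Of the 19 interferon sensors and relays and the 28 interferon-stimulated genes, none reached it with all litters, with medians of -0.02 and 0.02. With flutamide replicate 1 left out, the medians were -0.08 and -0.04, none was higher, and 2 and 3 genes were lower at an unadjusted limma p under 0.05, where 4% of all genes were. These were Irf9 and Ifng, and Mx1, Oas1a and Ifit2, with differences from -0.32 for Ifng to -0.20 for Irf9 and limma adjusted p from 0.314 to 0.410. Ifng, Mx1 and Oas1a lay below the floor. Of 15 other attractants and receptors, Ltb4r, the leukotriene receptor of neutrophils, was higher by 0.19 (SE 0.09) and Pf4, a platelet chemokine outside the symbol rule, lower by 0.19 (SE 0.09), at limma adjusted p of 0.535 and 0.520.

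The median SD among corn oil litters was 0.14 over the 51 genes and 0.13 over all genes. Among flutamide litters it was 0.16 and 0.14, with the highest SD of the family, 1.09, for Cxcl10. With flutamide replicate 1 left out, the median SD of flutamide litters was 0.15 over the 51 genes and 0.13 over all genes, and the highest of the family was 0.29.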

How the data were processed

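The authors deposited log2 values of 28826 probe sets in 14 samples, made with RMA per the submitters' processing notes (no version given in the labels); that they are on a log2 scale follows from their range. Per the labels' protocols, 50 ng of total RNA was amplified with a NuGEN system. RMA shrinks differences of dim probe sets. Platform annotation gave 15209 probe sets 1 symbol, updated by gene number through RefSeq GRCr8, and the brightest probe set per gene was kept (14497 genes). The comparison used lmFit and eBayes of limma 3.58.1 (R 4.3.3), two-sided; p-values were adjusted by Benjamini-Hochberg across the 14497 genes and read at 0.05. Exact permutation tests used all 3432 splits, so the smallest p is 0.000583. The script was tested on simulated data. Named genes were the CXCR3 ligands, members above the floor, members with an unadjusted p under 0.05 with or without flutamide replicate 1, those at least 1 log2 unit high in that litter, and up to 3 per list by p-value; others were named as lying on the same axis or as high or low in that litter, after their values were seen. Members and lists were chosen with earlier results of these data known. Alternatives were other filters, scalings, models, probe set choices and each litter left out; 1 fit without 3 litters and 1 joining the replicate number to the omission of flutamide replicate 1 were added after seeing the data. Close paralogs can hybridise to one another's probes.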

Additional observations from a re-analysis of the deposited data

Results flagged for a closer look

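Of the 102 groups of 7 litters, 51 genes in 2 groups, 4 had a litter farther from its neighbours than Dixon's 95% limit, where chance gives about 1 in 20. These were Cxcl10 at 8.13 and Cxcl11 at 6.28 in flutamide replicate 1, with the next litters at 5.77 and 4.50. Xcr1 was at 5.76 in the same litter with the next at 5.60. Ccr7 was at 6.92 in corn oil replicate 5 with the next at 6.66.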

How the results depend on the processing

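No member passed after adjustment under any alternative, and the lowest adjusted p over 891 refits of 36 named members was 0.0837. Of these refits 867 kept their sign. Over all genes 1 passed. That count was 0 to 1 with single litters left out, 2 with a trended and robust fit, and 0 with the plain test and in both fits added after seeing the data. Members higher at an unadjusted p under 0.05 numbered 6 to 11 with single litters left out and 5 when only genes above the floor were tested. They numbered 6 without flutamide replicate 1 and with the replicate number as a block, and 5 without corn oil replicate 1 and flutamide replicates 1 and 7. Lower members numbered 1 to 2, 0, 2 and 1 in these fits, in the same order. The median difference became 0.0431, 0.0535 and 0.0227 in the latter 3 fits, and with single litters left out lay between 0.0796 and 0.114. The replicate number as a block gave 12 higher members and 1 lower, with 0 genes passing. Of the fits named here, shares of all genes at an unadjusted p under 0.05 were counted only without flutamide replicate 1. The other member counts therefore have no background beside them. Deviations of same-numbered litters correlated at -0.07 to 0.15, and 1 of 7 pairs exceeded 0.1. Pairs with different numbers were not compared, so these values cannot decide whether same-numbered samples share more than a number. Members above the floor numbered 12 at the 99th percentile and 13 at the median of all genes. Signs changed with single litters left out for Ackr2 (-0.0503 to 0.0075), Ccl17 (-0.0448 to 0.0151), Ccr10 (-0.0452 to 0.0444), Ccr2 (-0.0711 to 0.1547) and Cxcl10 (-0.0903 to 0.4375). Without flutamide replicate 1 and with the block, Ccr2 was -0.0195 and Cxcl10 -0.0937. Without the 3 litters, Ccr2 was -0.0355, Cxcl10 -0.1039, Ccl24 0.0232 and Ccr7 -0.012. With array weights Ccr10 was 0.0089. The causes were not tested. Values near the floor limit what the dim members can show.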
